A study of Mus musculus with 9 samples.

Results

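The genes described are those of the cytosolic ribosomal proteins, the proteins that, with ribosomal RNA, make up the ribosomes of the cytoplasm. They were chosen by name alone: every gene whose mouse symbol is Rpl or Rps followed by a number, with or without a closing letter a, l, x or y, together with Rplp0, Rplp1, Rplp2 and Rpsa, with pseudogenes left out. This gave 81 of the 17846 genes in the data, 50 of the large subunit and 31 of the small subunit. The naming rule uses no measured value, but the family was chosen with earlier results of these data known. Liver mRNA was sequenced from male wild-type C57/BL mice, with 1 library for each of 9 mice and 3 mice in each group. Control mice ate normal chow and stayed sedentary. NASH mice ate the atherosclerotic (Ath) diet, a diet with added cholesterol and cholate used to induce non-alcoholic steatohepatitis (NASH), for 20 weeks without training. NASH+Exercise mice ate the same Ath diet for the same 20 weeks and ran on a treadmill for the last 8 of them, after 12 weeks of diet and from 20 weeks of age. The model is a diet model in 1 sex, and the training came on top of continued Ath diet, so no group was trained on normal chow. Livers were taken after an overnight fast.

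Ribosomal proteins are made in equal numbers for each ribosome, and their genes are transcribed at high and similar rates in most tissues. Their mRNAs begin with a run of pyrimidines, the terminal oligopyrimidine (TOP) motif, through which the kinase complex mTORC1 and the cap-binding protein LARP1 control how much of the mRNA is translated. In the liver much of the protein synthesis serves secreted plasma proteins, and the amount of ribosomes is known to vary with feeding and with growth.

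The pyrimidine run can be read in the sequence around the annotated transcription start, in RefSeq windows of GRCm38.p6 that were found for 61 of the 81 genes. Among 73 windows of these genes, 79.5% held a run of at least 8 pyrimidines (C or T, on the gene's strand) within 50 bases before or after the start, against 34.7% of 75 windows of mitochondrial ribosomal protein genes and 33.5% of 17476 windows of all protein-coding genes in the data. The median longest run was 10 bases, against 7 in the mitochondrial ribosomal protein genes and 6 in all genes. CGGAAG, the core of the site bound by ETS factors such as GABP, was found on either strand of the 300-base window in 60.3% of the windows, against 24.6% of all windows, and also in 53.3% of those of mitochondrial ribosomal protein genes. AAGATGG, the core of the YY1 site, stood in 15.1% against 6.37% of all windows, GGGCGG, the GC box of SP1, in 57.5% against 53.9%, and TATAAA in 9.59% against 9.17%. These are shares of letters in a window and say nothing about binding. The 30-base windows that follow are shown for the members that were called lower in NASH and for 4 of the 8 with a value above Control. None of these 4 was called in the edgeR fit with TMM scaling, described below. Others of the 8, such as Rpl3l, Rpl12 and Rpl26, are not shown. They read 5′ to 3′ on the gene's strand, with the longest pyrimidine run in capitals.
Rps2: aaattgtcccttccgcggcgCCTCCCTCTT
Rps28: cccgaggaTTCCTgggtaccgcgtgcggtc
Rpl18: gcaggccgCTCTTTCCCCgcccactccggc
Rps26: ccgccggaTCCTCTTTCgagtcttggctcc
Rpl24: caaacccaCTCCCCgccaatgctgtaggaa
Rps18: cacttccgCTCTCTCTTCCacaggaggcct
Rps12: accgccggCCTTTTCCCCTgccgccgccga
Rps6: aagtcgggCCTCTTTTTCgtgacgcctccc
Rpl31: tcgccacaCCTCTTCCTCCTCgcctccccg
Rps15a: ccggcccaCTCTCTTTCTgccatcttccct

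The windows lie at chr17:24720083-24720112 (plus strand) for Rps2, chr17:33824562-33824591 (minus strand) for Rps28, chr7:45718064-45718093 (plus strand) for Rpl18, chr10:128626482-128626511 (minus strand) for Rps26 and chr16:55966231-55966260 (plus strand) for Rpl24, and at chr17:33955646-33955675 (minus strand) for Rps18, chr10:23787180-23787209 (minus strand) for Rps12, chr4:86857347-86857376 (minus strand) for Rps6, chr1:39367825-39367854 (plus strand) for Rpl31 and chr7:118116141-118116170 (minus strand) for Rps15a, all in GRCm38.p6 and all within 50 bases of the annotated start of the transcript, so that they cover untranscribed sequence, the first exon or both. In Rpl18, Rps18, Rps26, Rps12 and Rps6 the run began between position -2 and position 9, with the annotated start as position 1. In Rps28 and Rpl24 the longest run was 5 and 6 bases, so these members had no run of 8 in this stretch, and in Rps2 it began at position 41, at the end of the stretch searched. The length of the run did not order the members' changes in NASH: across 57 members the correlation of run length with the log2 fold change was 0.09, a description over genes that share the 9 libraries, and the median log2 fold change was -0.24 in the 49 members with a run of at least 8 and -0.25 in the other 8.

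The depth was 20086004 to 22495449 estimated counts a mouse, of which the members took between 297523 and 361959. The TMM factors, which rescale the libraries so that most genes show no change, were 0.906, 0.800 and 0.976 in Control, 1.09, 1.23 and 1.09 in NASH and 1.08, 0.979 and 0.912 in the NASH+Exercise mice, with Control replicate 4 the lowest. Control replicate 4 also stood apart in base composition: genes with a coding GC content of 40% deviated in it by -0.73 (log2) from the average mouse, against 0.27 and 0.28 in the other Control mice. The deviation was also negative in NASH+Exercise replicate 22, at -0.29, and in NASH replicate 5, at -0.16, and it was positive in the remaining mice. The 9 hepatocyte markers tested summed to 132021 to 158107 CPM in Control, from 78789 to 109603 in NASH and from 87762 to 115064 in the NASH+Exercise mice, and the 6 pan-leukocyte markers to 28.6 to 49.3 CPM in Control, from 282 to 319 in NASH and from 175 to 253 in the NASH+Exercise mice. In NASH against Control 5 of 9 hepatocyte markers were called lower, beside 14.4% of all genes. Called higher, beside 21.2% of all genes, were 6 of 6 pan-leukocyte, 9 of 9 macrophage, 5 of 6 neutrophil, 9 of 9 T and NK cell, 5 of 9 stellate cell, 3 of 5 cholangiocyte, 3 of 7 endothelial and 5 of 5 cycling cell markers. Of the B and plasma cell markers 0 of 6 were called and of the erythroid markers 0 of 5, with 0 called in these 2 lists by DESeq2 as well and 1 and 0 at an unadjusted p under 0.05. The summed macrophage markers ran from 92.5 to 170.0 CPM in Control, from 1047 to 1154 in NASH and from 781 to 935 in the NASH+Exercise mice, and no macrophage marker was at 0 in any mouse. The neutrophil marker Ngp and the T cell marker Gzma were at 0 in at least 1 Control mouse. In NASH+Exercise against NASH no marker of any of these lists was called by edgeR, with 0 to 5 a list at an unadjusted p under 0.05, while DESeq2 called 1 pan-leukocyte and 4 stellate cell markers lower, beside 1.45% of all genes. The part of this shift in the values of the ribosomal protein genes was not tested, and in whole liver fewer cells of a type and less RNA in each cell cannot be told apart.

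In TPM, which scale the transcripts by their length and by the library so that levels of different genes can be compared, the ribosomal protein genes were expressed at a high and fairly even level. The median of the members' mean TPM over the 9 mice was 465, and 73 of the 81 had at least 100 TPM, but only 2 were among the 100 genes of highest mean TPM in these livers. The 10 highest members held 24.4% of the members' summed TPM. The highest were Rpl10, whose protein joins the large subunit late in its assembly, at 1370.4 TPM, Rps2 of the small subunit at 1238, the stalk protein gene Rplp1 at 957, Rpl41, which encodes the shortest ribosomal protein, at 954 and Rpl28 at 936. For Rpl10 the TPM values were 1219, 1226 and 1325 in Control, 1469, 1533 and 1550.2 in NASH and 1404, 1318 and 1289 in the NASH+Exercise mice. Each NASH mouse was above each mouse of the other groups on this scale. For Rps2 they were 1199, 1408 and 1298 in Control, 1227, 1247 and 1234 in NASH and 1119, 1189 and 1216 in the NASH+Exercise mice, with the NASH mice inside the range of Control. Rplp1 had group means of 884 ± 86.3 (SD, n = 3) TPM in Control, 1059 ± 77.8 in NASH and 928 ± 29.7 in the NASH+Exercise mice, Rpl41 of 898 ± 54.3, 1015 ± 28.8 and 948 ± 14.2, and Rpl28 of 941 ± 53.1, 974 ± 24.6 and 893 ± 34.6. The means of Rplp1 and Rpl41 differed by less than the larger of their SDs in every group, so their order is not resolved.

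At the low end of the tested members stood Rpl22 at 84.6 TPM, Rps20 at 55.7, Rps15a at 21.1, Rps6 at 15.1 and Rpl3l at 0.343. Rps6 encodes the small subunit protein that S6 kinase phosphorylates downstream of mTORC1, and its estimated counts were 184 to 346 a mouse although its protein is needed in the same number as that of the other members. Ribosomal protein genes have many near-identical processed pseudogenes, and estimated counts divide reads among such copies. Whether this touches Rps6, Rps15a or Rps20 was not tested, and their levels are uncertain. Rps15a had 1105 to 1616 estimated counts and Rps20 had 2024 to 2911, so their counts were not low as those of Rps6 were. They had 66.0 and 44.1 estimated counts per TPM, the highest of the members, against 17.6 in Rps6. This ratio rises with the length by which TPM divides. An annotated mRNA with the longest coding sequence has 640 bases in Rps15a and 3706 in Rps20. What sets the TPM of these genes was not tested. Only 4 members had a mean under 1 TPM, all with an l at the end of the symbol: Rpl3l, Rpl32l, Rpl39l and Rpl10l. The last 3 had 0 to 5 estimated counts in every mouse and did not pass the filter on low counts, so 78 of the 81 members were tested.

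**Figure D1:**
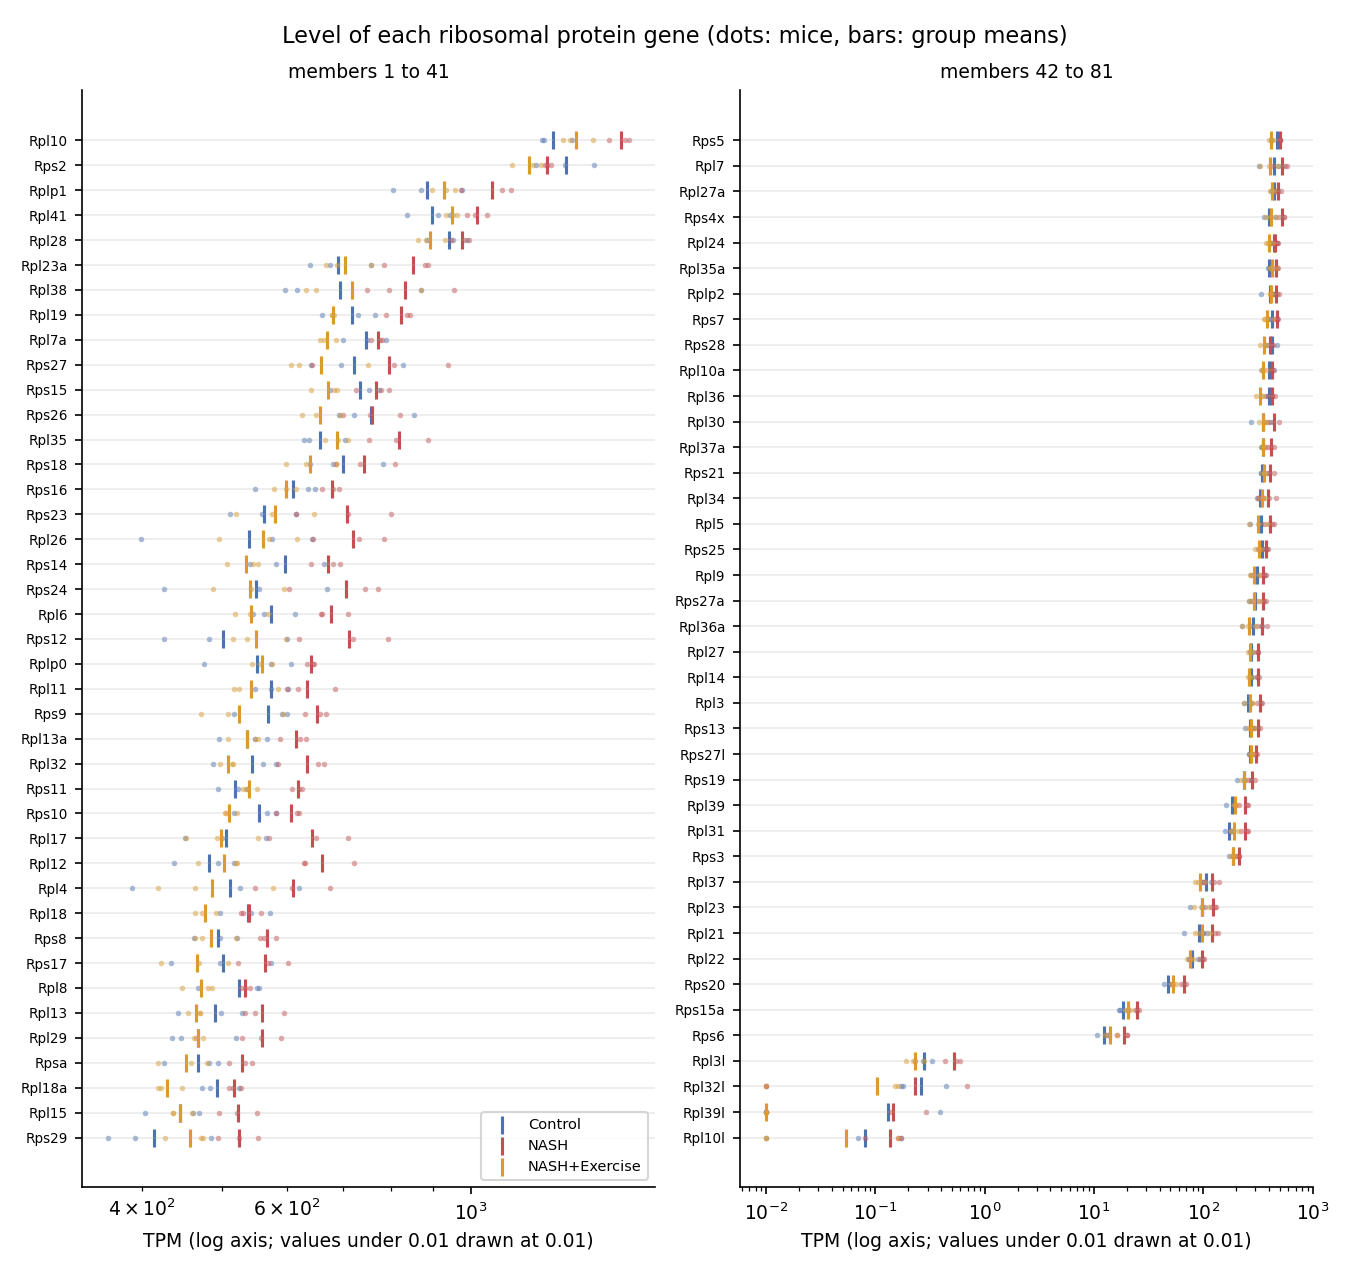
TPM of each of the 81 ribosomal protein genes on log axes, ordered by the mean over 9 mice from Rpl10 (top left) to Rpl10l (bottom right), with small dots for the mice and bars for the group means of 3 mice (Control blue, NASH red, NASH+Exercise orange). 73 members have a mean of at least 100 TPM, and the step at the lower right separates Rps6 at 15.1 TPM from Rpl3l at 0.343 TPM.

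The members together took 3.42, 3.51 and 3.86% of all TPM in the Control mice, 3.90, 4.33 and 4.17% in NASH and 3.66, 3.42 and 3.39% in the NASH+Exercise mice. Every NASH mouse was above every Control and every NASH+Exercise mouse, and the last 2 groups overlapped. Of all estimated counts they took 1.45, 1.54 and 1.57% in Control, 1.54, 1.72 and 1.68% in NASH and 1.51, 1.47 and 1.48% in the NASH+Exercise mice. On this scale NASH lay above NASH+Exercise without overlap, and the lowest NASH mouse lay inside the range of Control. The group means were 1.52% ± 0.0638 (SD, n = 3) in Control, 1.65% ± 0.0966 in NASH and 1.48% ± 0.0205 in the NASH+Exercise mice. The ratio of summed large subunit TPM to summed small subunit TPM was 1.57, 1.49 and 1.499 in Control, 1.58, 1.57 and 1.55 in NASH and 1.56, 1.56 and 1.56 in the NASH+Exercise mice. The ratio thus stayed within 1.49 to 1.58 over the 9 mice, with 2 Control mice, replicates 4 and 29, at the low end. These are shares of a whole, and a share moves also when other genes move.

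**Figure D2:**
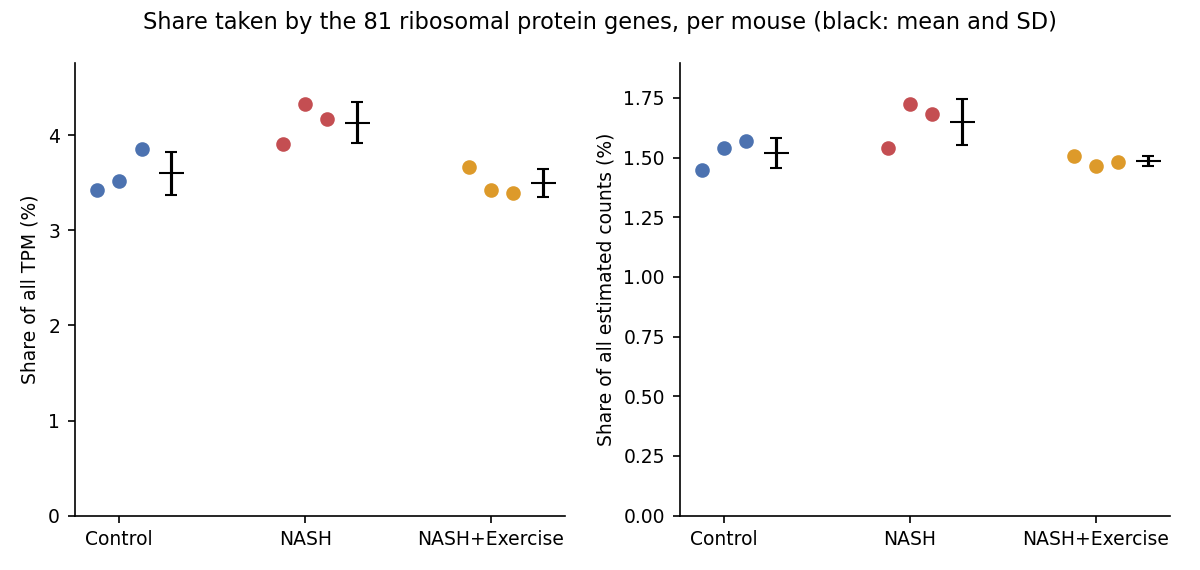
Share of all TPM (left, %) and of all estimated counts (right, %) taken by the 81 ribosomal protein genes, with 1 dot per mouse and the mean and SD of 3 mice in black. The NASH mice sit between 3.90% and 4.33% of TPM, above all others, while in counts the lowest NASH mouse, at 1.54%, lies inside the Control range of 1.45% to 1.57%.

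The first comparison, NASH against Control, asks what the Ath diet changed. After TMM scaling, which sets the bulk of genes to no change, the ribosomal protein genes were slightly lower in NASH: 70 of the 78 tested members had a lower mean, and their median log2 fold change was -0.23, which is 14.5% lower, beside a median of 0.01 over the 13619 genes tested. The members' median log2 CPM, the counts scaled by the library total after TMM, was 7.60, 7.86 and 7.58 in the Control mice, 7.45, 7.43 and 7.54 in NASH and 7.39, 7.49 and 7.63 in the NASH+Exercise mice. The NASH mice were all below the Control mice, and Control replicate 4 was the highest of the 9. The direction depends on the scaling. With library size alone the members' median was 0.14, beside 0.36 for all genes, and in limma on log2(TPM + 0.1) it was 0.22 beside 0.44, so that the family was higher in NASH in absolute share. With DESeq2 size factors it was -0.26 beside -0.02. Relative to the median gene the family was lower under each of these scalings, by -0.24 with TMM, -0.24 with DESeq2 size factors, -0.22 with library size and -0.22 with TPM. A scaling shifts all genes of a library alike, so this gap could hardly differ between scalings. Its likeness over them is not repeated evidence. With a pseudocount of 1 on TPM the gap was -0.11, and without Control replicate 4 it was -0.11 with TMM.

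**Figure D3:**
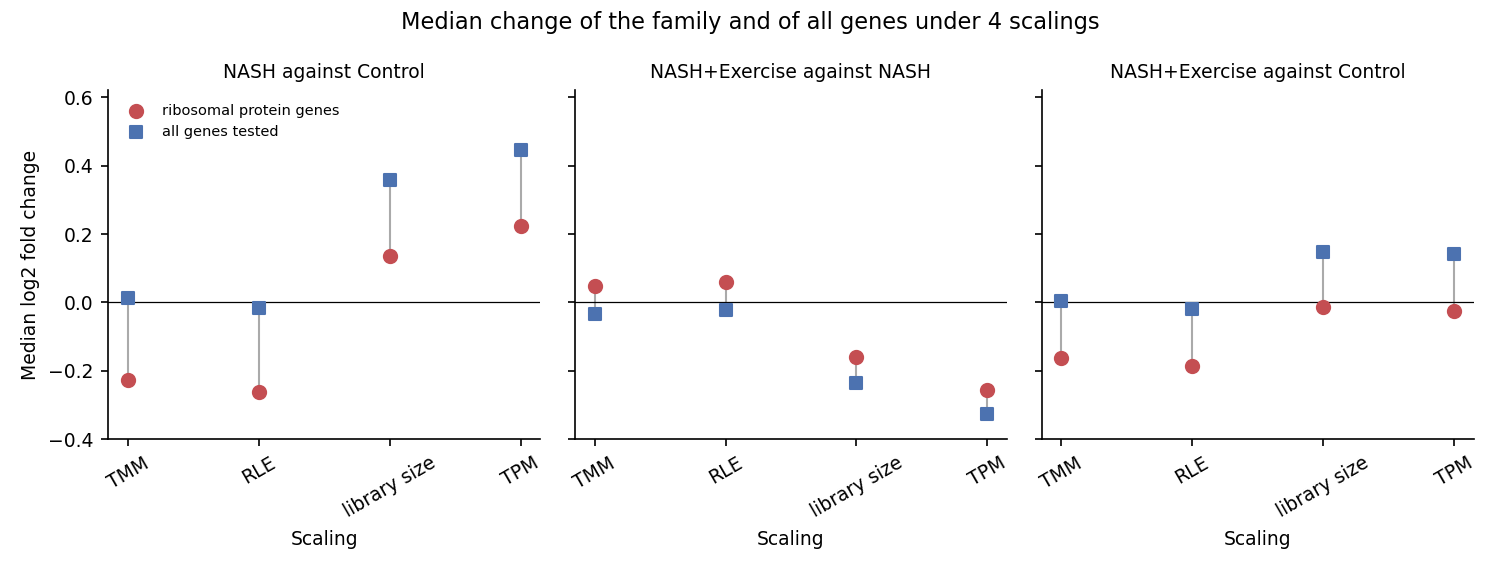
Median log2 fold change of the 78 tested ribosomal protein genes (red dots) and of all genes tested (blue squares) in the 3 comparisons, under 4 scalings of the same libraries: TMM, DESeq2 size factors (RLE), library size alone, and TPM with a pseudocount of 0.1. In NASH against Control the family's median runs from -0.26 to 0.22 with the scaling but lies below that of all genes each time.

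A member was called when its adjusted p was under 0.05 in edgeR's quasi-likelihood test, with the adjustment over all 13619 genes. On this rule 6 of 78 members, or 7.69%, were called lower in NASH and 0 higher, against backgrounds of 14.4% of all genes called lower and 21.2% called higher. In this fit with TMM the members' shares did not exceed either background. The split turned with the scaling: with library size alone 0 members were called lower and 8 higher, beside 4.65% and 33.0% of all genes, and in limma on log2(TPM + 0.1) 0 were called lower and 24 higher, beside 3.79% and 36.8%. DESeq2 on the 9 mice called 17 of 81 lower and 0 higher, beside 14.6% and 18% of all genes, so there the share called lower was above that of all genes. By edgeR 19 members had an unadjusted p under 0.05. With the added requirement of an absolute log2 fold change above 1, no member was called by edgeR, beside 18.3% of all genes. In 31 of the 78 members every NASH mouse was below every Control mouse and in 1 every NASH mouse was above, beside 22.2% and 27.4% of all genes. The first share was above that of all genes and the second below it. The small subunit supplied 4 of the 6 called members and had a median log2 fold change of -0.26, and the large subunit supplied 2 and had a median of -0.20.

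Rps28, whose protein sits near the mRNA exit of the small subunit, had 89.2, 97.5 and 89.2 CPM in Control and 59.9, 64.5 and 72.9 in NASH. The groups did not overlap, and the NASH+Exercise mice, at 65.4, 74.2 and 71.995, were also all below Control. Its log2 fold change in NASH was -0.48 ± 0.11 (SE, adjusted p = 0.00796). Its difference was negative under every scaling run, though not called with library size alone, on the members' own scale or on the TPM scale. Rps26, a neighbour of Rps28 on the path of the mRNA, had 194, 237 and 212 CPM in Control and 151, 160.0 and 167 in NASH. Again the groups were apart, and its log2 fold change was -0.43 ± 0.12 (SE, adjusted p = 0.0175). Rps2, on the side of the small subunit where mRNA enters, had 786, 1082 and 756 CPM in Control, 617, 568 and 639 in NASH and 602, 729.7 and 818 in the NASH+Exercise mice. Control replicate 4 stood far above the other Control mice, and the NASH+Exercise mice spread across both groups. The log2 fold change of Rps2 in NASH, -0.52 ± 0.18 (SE, adjusted p = 0.0410), was the lowest of the family, and it was -0.36 without Control replicate 4.

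Rpl18, a protein of the large subunit, had 219, 294 and 212 CPM in Control and 178, 170.2 and 184 in NASH, without overlap. Its log2 fold change was -0.45 ± 0.16 (SE, adjusted p = 0.0482), and without Control replicate 4 it was -0.30. Rpl24, whose protein forms a bridge between the subunits, had 193, 215 and 183 CPM in Control and 139, 146 and 164 in NASH, again without overlap, with a log2 fold change of -0.40 ± 0.12 (SE, adjusted p = 0.0272). The sixth called member, Rps18, was named after its values were seen. It had 212, 265 and 231 CPM in Control and 175, 187 and 193 in NASH, without overlap and with a log2 fold change of -0.35 ± 0.12 (SE, adjusted p = 0.0434). On the TPM scale Rpl18, Rps26, Rpl24 and Rps18 had log2 differences of 0.01, 0.01, 0.04 and 0.09, beside the negative values with TMM. Without Control replicate 4, 2 of the 6 calls were kept, Rps26 and Rps28, and the members' median was -0.14. Without NASH replicate 5 or NASH replicate 19, 1 member was called in each case, Rps28, and in edgeR on the 6 mice compared 2 were, Rps26 and Rps28.

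**Figure D4:**
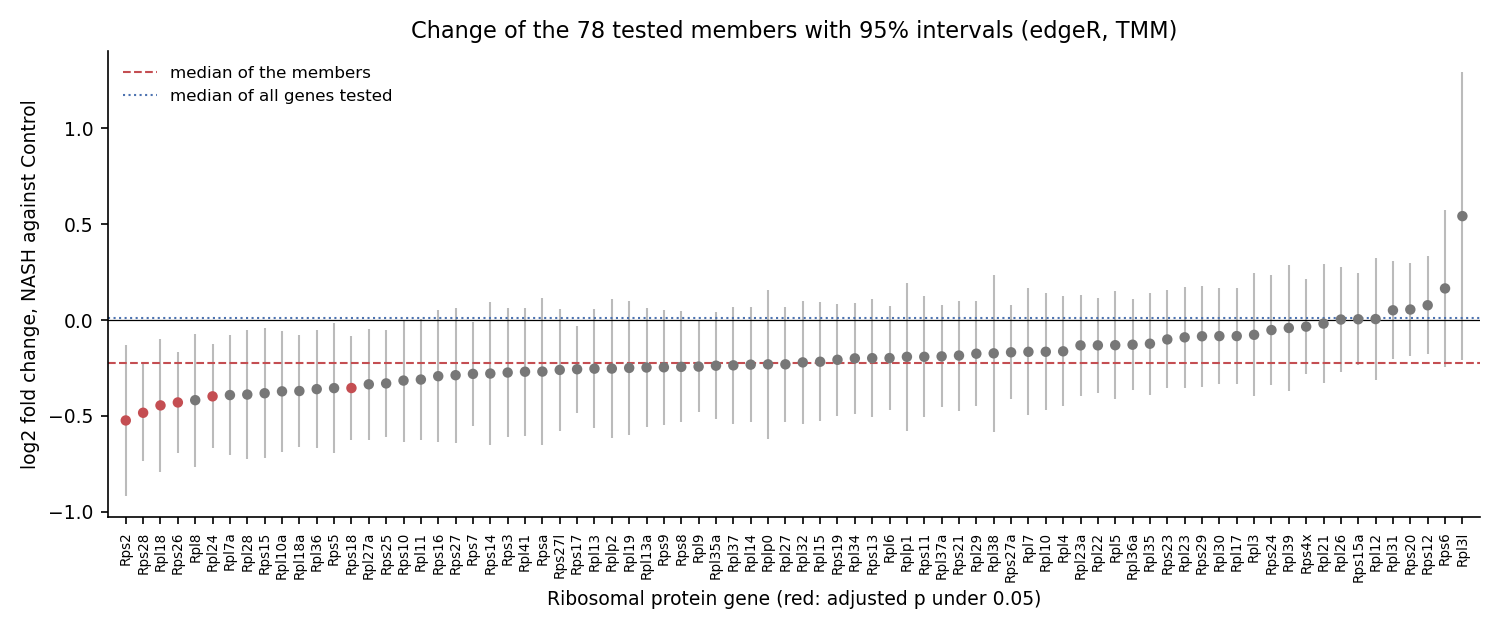
Log2 fold change of the 78 tested members in NASH against Control (edgeR, TMM, 3 mice a group), ordered from Rps2 at -0.52 to Rpl3l at 0.54, with 95% intervals as grey lines and the 6 called members in red. The members' median of -0.23 (dashed) lies below the median of all genes tested at 0.01 (dotted), and for most members the interval includes 0.

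Members also stood at the other end, with NASH values at or above those of Control, and none of them passed the test. Rps12, a small subunit protein, had 158, 164 and 174 CPM in Control and 156, 181 and 187 in NASH, with overlap and a log2 difference of 0.08 ± 0.12 (SE, adjusted p = 0.645). Rps6 had 9.87, 13.9 and 11.1 CPM in Control and 11.5, 12.9 and 14.7 in NASH, with a log2 difference of 0.16 ± 0.19 (SE, adjusted p = 0.528). Rps20 and Rpl31 lay at 0.05 and 0.05, and Rps15a at 0.00. To compare the members with each other, the libraries were also scaled by the members' own summed counts. On that scale, which sets the family as a whole to no change, Rps20 was called higher in NASH at 0.29 ± 0.09 (SE, adjusted p = 0.0294) and Rpl31, named after its values were seen, at 0.28 ± 0.09 (SE, adjusted p = 0.0457), and 0 members were called lower, beside 26.6% and 6.43% of all genes called higher and lower, while edgeR gave 10 members an unadjusted p under 0.05. Rps20 made up 0.141, 0.124 and 0.130% of the members' TPM in Control and 0.160, 0.162 and 0.161% in NASH, and Rpl31 made up 0.522, 0.450 and 0.475% and 0.570, 0.577 and 0.614%. Both shares were higher in every NASH mouse than in every Control mouse. For Rps2 the same share was 3.50, 4.01 and 3.36% in Control and 3.14, 2.88 and 2.96% in NASH, with the groups apart the other way, and its change within the family was -0.28 ± 0.11 (SE, adjusted p = 0.0803).

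With all 9 mice the members' changes went with base composition. Their coding GC content ran from 43.5% to 61.6% with a median of 52.9%, and across the 77 tested members other than Rpl3l the log2 fold change in NASH against Control had a Pearson correlation of -0.53 and a Spearman correlation of -0.56 with it, while across 13199 genes the Pearson correlation was -0.01. These are descriptions over genes that share 9 libraries. The 25 members of lowest GC content, up to 50.6%, had a median log2 fold change of -0.10, and the 25 of highest, from 54.8%, had -0.27. Control replicate 4, the library with the unusual base composition, moves with this pattern: without it the Pearson correlation was -0.28 and the Spearman correlation -0.19. The medians were then -0.14 in the GC-poor members and -0.14 in the GC-rich ones. A correction of each library for GC content across all genes left the correlation at -0.48, and 13 members were then called lower instead of 6 and 0 higher, beside 16.5% of all genes called lower and 22.2% higher. The part of base composition in the calls was not tested further.

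**Figure D5:**
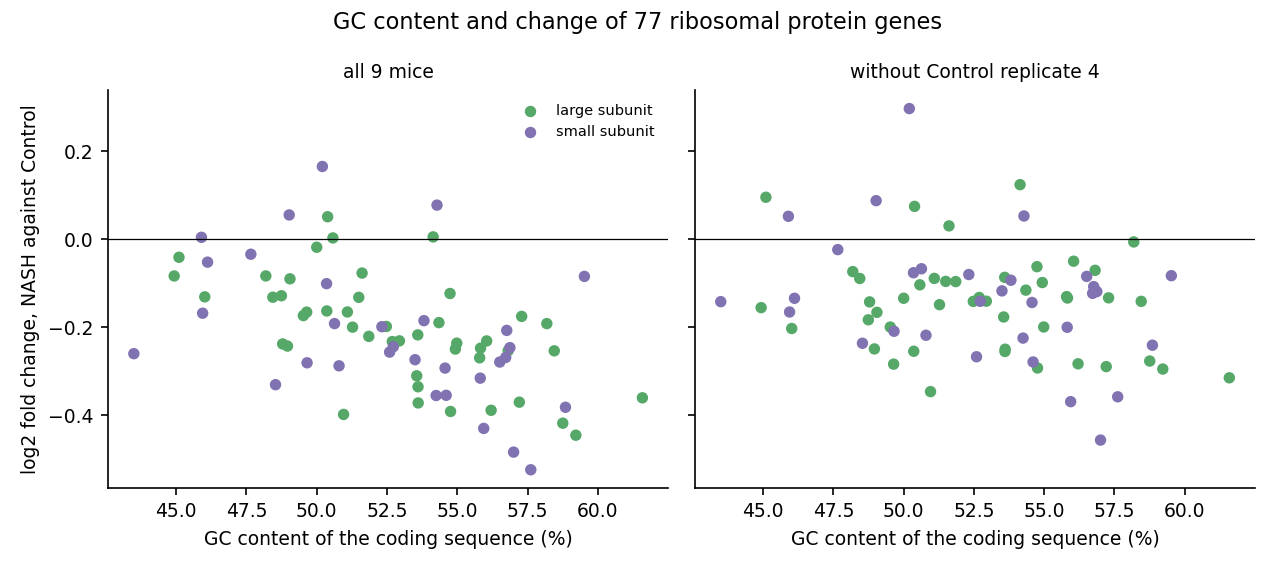
Log2 fold change in NASH against Control (edgeR, TMM) of 77 ribosomal protein genes against the GC content of their coding sequence, with all 9 mice (left) and without Control replicate 4 (right), large subunit in green and small subunit in violet. The downward slope on the left, with a correlation of -0.53, is flatter on the right, at -0.28.

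The second comparison, NASH+Exercise against NASH, asks what 8 weeks of treadmill training changed during continued Ath diet. No member was called in either direction by edgeR, beside 0.11% of all genes called higher, 0.0514% called lower and 0.14% on the rule with the fold threshold, and 0 members were called by DESeq2, beside 0.812% of all genes called higher and 1.45% lower. At an unadjusted p under 0.05 there was 1 member in edgeR and 0 in DESeq2. After TMM scaling 53 of 78 members had a higher mean, with a median log2 difference of 0.05 beside -0.03 for all genes, and a median half-width of the members' 95% intervals of 0.30. Without NASH+Exercise replicate 22 the members' median was -0.0019. In 1 member every NASH+Exercise mouse was below every NASH mouse and in 0 above, beside 14.9% and 9.16% of all genes. Here too the sign depended on the scaling: the median was -0.16 with library size alone, with 9 members at an unadjusted p under 0.05, and -0.26 on the TPM scale, where all 78 members had a lower mean and 48 an unadjusted p under 0.05, and 0 were called by limma, beside 0.103% of all genes called higher and 0.117% lower. Relative to the median gene the members stood 0.08 higher with TMM, 0.08 with library size and 0.07 with a pseudocount of 0.1 on TPM. Here too a scaling can hardly move this gap, so the likeness of these values is not repeated evidence. The gap was 0.0038 with a pseudocount of 1, and 0.0099 with TMM when NASH+Exercise replicate 22 was left out. Across the 77 members other than Rpl3l, the change had a Pearson correlation of 0.39 with coding GC content, and of 0.09 without that mouse. In the mitochondrial ribosomal protein genes the correlation was 0.47, and 0.23 without it. The part of base composition in these changes was not tested.

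The members furthest above the family in this comparison were Rps2, at 0.24 ± 0.18 (SE, adjusted p = 0.556), Rpl41, at 0.21 ± 0.15 (SE, adjusted p = 0.543), and Rpl28, at 0.18 ± 0.15 (SE, adjusted p = 0.608). Rpl41 had 213, 204 and 225 CPM in NASH and 219, 245 and 277 in the NASH+Exercise mice, beside 235, 310.4 and 228 in Control. Rpl28 had 229, 215 and 247 CPM in NASH and 222, 259.8 and 300.3 in the NASH+Exercise mice, beside 277, 349.8 and 276 in Control. In all 3 genes NASH+Exercise replicate 22 was the highest of its group and the groups overlapped, and on the TPM scale the difference had the opposite sign in each. Furthest below were Rpl36a, at -0.12 ± 0.11 (SE, adjusted p = 0.650), and Rps6, at -0.11 ± 0.18 (SE, adjusted p = 0.833). Rpl3l, at -0.95 ± 0.35 (SE, adjusted p = 0.246), was the member with groups apart, on 6 to 15 estimated counts a mouse.

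The third comparison, NASH+Exercise against Control, asks how far the trained mice on Ath diet stood from Control, and it shares its mice with the other 2 comparisons. Rps28 was the 1 member called lower and 0 were called higher, beside 9.58% and 15.6% of all genes, and 11 members had an unadjusted p under 0.05. DESeq2 called 4 lower and 0 higher, beside 9.94% and 13.9% of all genes. With the fold threshold 0 members were called by edgeR, beside 13.5% of all genes. In 21 members every NASH+Exercise mouse was below every Control mouse and in 0 above, beside 17.0% and 21.5% of all genes. On the TMM scale 73 of 78 members had a lower mean, with a median of -0.16, against -0.01 with library size alone and -0.03 on the TPM scale. Rps28 had a log2 fold change of -0.38 ± 0.11 (SE, adjusted p = 0.0325), and it was no longer called without Control replicate 3, without Control replicate 4, or without any 1 of the NASH+Exercise mice. Without Control replicate 4 the members' median was -0.07. Rpl36, with 102, 113 and 97.7 CPM in Control and 63.5, 84.0 and 89.1 in NASH+Exercise, had -0.40 ± 0.14 (SE, adjusted p = 0.0597), and Rpl3l had -0.40 ± 0.38 (SE, adjusted p = 0.541). At the upper end were Rps6 at 0.06 ± 0.19 (SE, adjusted p = 0.864), Rps20 at 0.03 ± 0.11 (SE, adjusted p = 0.863) and Rps29 at 0.03 ± 0.12 (SE, adjusted p = 0.907), all within their error of no difference. Rps29 had 94.5, 103 and 104 CPM in Control, 91.4, 92.6 and 99.9 in NASH and 93.6, 96.3 and 116 in the NASH+Exercise mice.

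Some ribosomal proteins have a second gene with a restricted pattern. Rps27l, a paralog of Rps27 that p53 is known to induce, was expressed at 267 ± 6.67 (SD, n = 3) TPM in Control, 302 ± 9.002 in NASH and 276 ± 8.44 in the NASH+Exercise mice, against 721 ± 95.8, 796 ± 148 and 659 ± 80.3 for Rps27. After TMM scaling the log2 difference in NASH against Control was -0.26 ± 0.14 (SE, adjusted p = 0.189) for Rps27l and -0.29 ± 0.16 (SE, adjusted p = 0.188) for Rps27. Both differences are negative while the mean TPM was higher in NASH, since the sign turns with the scaling as in the family, and neither passed the test. Rpl3l, the paralog of Rpl3 known from striated muscle, had 0.230, 0.270 and 0.330 TPM in Control, 0.430, 0.590 and 0.550 in NASH and 0.220, 0.280 and 0.190 in the NASH+Exercise mice, against a mean of 284 for Rpl3. Each NASH mouse was above the mice of both other groups, with a log2 difference to Control of 0.54 ± 0.34 (SE, adjusted p = 0.246). Rpl10l, Rpl39l and Rpl32l, the first 2 known from the testis, had 0 to 5 estimated counts in every mouse, so no change in them was detectable at this depth. Their parents Rpl10, Rpl39 and Rpl32 had -0.17 ± 0.14 (SE, adjusted p = 0.386), -0.04 ± 0.15 (SE, adjusted p = 0.859) and -0.22 ± 0.15 (SE, adjusted p = 0.269) in NASH against Control.

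A further 6 genes that encode ribosomal proteins or a close relative under other names were read, and all were tested. Fau, which encodes a ubiquitin-like protein fused to a small subunit protein, had 219, 293 and 227 CPM in Control, 158, 166 and 186 in NASH and 162, 176 and 184 in the NASH+Exercise mice. It was called lower in NASH at -0.54 ± 0.14 (SE, adjusted p = 0.0137) and in NASH+Exercise against Control at -0.50 ± 0.14 (SE, adjusted p = 0.0255), the second of which was lost without Control replicate 4. Rack1, a signalling scaffold on the small subunit, Rps3a1, Rpl36al, Rpl7l1 and Rpl22l1 were not called, with log2 differences in NASH against Control of -0.26, -0.18, -0.10, -0.25 and 0.06. The median of the 6 was -0.22, beside -0.23 in the members, and it turned to 0.13 with library size alone and to 0.22 on the TPM scale. None was called in NASH+Exercise against NASH by edgeR or DESeq2, with 1 at an unadjusted p under 0.05 in each.

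The nuclear genes of the mitochondrial ribosome, all 78 tested, are the nearest family for comparison. In NASH against Control 44 of them were called lower and 0 higher by edgeR, beside 14.4% and 21.2% of all genes. DESeq2 called 46 lower and 0 higher, beside 14.6% and 18% of all genes. Their median log2 fold change was -0.42, against -0.23 in the cytosolic family. After TMM scaling all 78 had a lower mean, and in 59 every NASH mouse was below every Control mouse, beside 22.2% of all genes. With library size alone, however, 48 had a lower mean, with a median of -0.059, and on the TPM scale 32 had, with a median of 0.026. Without Control replicate 4, 35 were called lower, and the share of all genes in that fit is not given. Their summed level was 2238 to 2775 CPM in Control, from 1751 to 1885 in NASH and from 1932 to 2278 in the NASH+Exercise mice. After TMM scaling 76 of 78 had a higher mean with training than in NASH, with a median of 0.19 against 0.05 in the cytosolic family. The sign of this median turned to -0.015 with library size alone and to -0.11 on the TPM scale. In 30 of the 78 every NASH+Exercise mouse was above every NASH mouse, beside 0 of the cytosolic members and 9.16% of all genes. None of the 78 was called in NASH+Exercise against NASH by edgeR or DESeq2, with 6 and 5 at an unadjusted p under 0.05. Against Control the trained mice had 10 called lower, beside 9.58% of all genes, and the median was -0.23, against 3 called and a median of -0.098 without Control replicate 4. The difference between the 2 families was not tested.

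Other genes of translation were read from lists of their own. In NASH against Control the backgrounds were 14.4% of all genes called lower and 21.2% called higher by edgeR. By DESeq2 they were 14.6% and 18%. Of 16 elongation factors and other mRNAs with a TOP motif, 4, or 25%, were called lower in NASH and 0 higher, with a median log2 fold change of -0.28 after TMM scaling. DESeq2 called 7 lower and 0 higher, and without Control replicate 4 edgeR called 2 lower. Eif3l, a subunit of initiation factor 3, fell by the most, from 89.0, 121 and 91.4 CPM in Control to 76.6, 67.2 and 71.0 in NASH, at -0.49 ± 0.14 (SE, adjusted p = 0.0209), and Eif4b, which assists unwinding of the mRNA, was lowest in NASH+Exercise against Control, at -0.54 ± 0.14 (SE, adjusted p = 0.0155). Of 28 initiation factors 9, or 32.1%, were called lower and 0 higher, with a median of -0.34, and DESeq2 called 14 lower and 0 higher. Eif1, which guards the choice of the start codon, had 494, 585 and 455 CPM in Control, 234, 202 and 254 in NASH and 229.8, 241 and 262 in the NASH+Exercise mice. Both Ath diet groups were far below Control, at -1.15 ± 0.15 (SE, adjusted p = 0.000178) and -1.07 ± 0.14 (SE, adjusted p = 0.000435). Of 57 genes of ribosome biogenesis 17, or 29.8%, were called lower and 1 higher in NASH, with a median of -0.29. With library size alone the medians of these 3 lists were 0.07, 0.00062 and 0.06, and on the TPM scale 0.16, 0.11 and 0.17, so their direction turned with the scaling as that of the family did, and edgeR with library size alone called 0, 1 and 0 of their genes lower. Mrto4, an assembly factor of the large subunit, was the lowest at -0.66 ± 0.14 (SE, adjusted p = 0.00464), and Tcof1, which serves transcription of ribosomal RNA genes, was the 1 called higher, at 0.53 ± 0.15 (SE, adjusted p = 0.0224). Against Control, 6 were called lower in NASH+Exercise and 1 higher, or 10.5% and 1.75% beside 9.58% and 15.6% of all genes, led by Fcf1 at -0.57 ± 0.13 (SE, adjusted p = 0.00875) and by Heatr1 at 0.39 ± 0.13 (SE, adjusted p = 0.0479), both of the machinery that processes ribosomal RNA of the small subunit.

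Of 29 genes of mTORC1 and of the stress control of translation, 4 were called higher and 4 lower in NASH, 13.8% each way and so no more than of all genes, with a median of -0.12 after TMM scaling that was 0.25 with library size alone and 0.33 on the TPM scale. Akt1s1, which encodes the mTORC1 inhibitor PRAS40, was the lowest at -0.60 ± 0.14 (SE, adjusted p = 0.00711). Eif2ak3, which encodes the stress kinase PERK, was the highest at 0.99 ± 0.34 (SE, adjusted p = 0.0485), with 11.3, 12.9 and 10.6 CPM in Control and 35.4, 19.5 and 13.9 in NASH. Larp1, whose protein binds TOP mRNAs, had 238, 245 and 231 CPM in Control, 166, 159 and 157 in NASH and 146, 175 and 152 in the NASH+Exercise mice. It was lower than Control in every mouse on Ath diet, at -0.57 ± 0.11 (SE, adjusted p = 0.00314) in NASH and -0.60 ± 0.11 (SE, adjusted p = 0.00336) in the NASH+Exercise mice. Eef2k, the kinase that inhibits elongation factor 2, was higher in both, at 0.85 ± 0.25 (SE, adjusted p = 0.0214) and 1.17 ± 0.25 (SE, adjusted p = 0.00614). Of 13 p53 targets 7, or 53.8%, were called higher and 1 lower in NASH, with a median of 0.62. Eda2r, a receptor of the TNF receptor family, had 0, 0.167 and 0.102 CPM in Control and 5.69, 2.60 and 2.55 in NASH (adjusted p = 0.000189), with too few counts in Control for a fold, and Ei24 was the lowest at -0.85 ± 0.14 (SE, adjusted p = 0.00102). Ei24 and Eda2r also had the lowest and highest values among the p53 targets called in NASH+Exercise against Control. Between NASH+Exercise and NASH none of these lists had a member called by edgeR or DESeq2, while edgeR gave an unadjusted p under 0.05 to 6 genes of ribosome biogenesis, 3 of the mTORC1 and stress list and 0 of the other 3 lists, and DESeq2 to 4, 3 and 0.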

How the data were processed

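Liver mRNA libraries of 9 mice (3 a group) were used. For each gene the authors deposited estimated counts, which are not normalized, and TPM values, in which each library sums to the same total and length is divided out; FPKM was not used. Per the labels' processing notes, HISAT2 2.1.0, Bowtie2 2.2.5, RSEM 1.2.8 and GRCm38.p6 were named, with no role or strand setting given. The authors deposited the values of all mice a second time in 1 table, and 0 of the 285536 values shared with the single files differed. Entrez identifiers were matched to RefSeq symbols for 17728 of 17846 genes, and the pattern met 0 pseudogenes.

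Estimated counts were rounded, filtered with filterByExpr (10 counts, total 15) and tested with edgeR 4.0.16 in R 4.3.3 (TMM, robust quasi-likelihood fit of all 9 mice by group, Benjamini-Hochberg over 13619 genes). The study used DESeq2 and a log2 fold change above 1, which served as alternatives (DESeq2 1.42.0), with limma 3.58.1 on log2(TPM + 1) and log2(TPM + 0.1), other scalings, no filter, 6 mice, each mouse left out, and a GC-content correction (loess, span 0.4) chosen after seeing the data. CPM values are TMM-scaled. Coding GC content came from the GENCODE annotation of GRCm38. With 3 mice a group an exact permutation test cannot give a p under 0.1, so none is given. For all members but the low ones, counting error at this depth is smaller than the spread between mice, and the labels do not say how the mice were housed or extracted. The edgeR script was tested on simulated counts with known changes.

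The members and gene lists were chosen with earlier results of these data known, so no list is independent evidence. The text names, for each comparison, up to 5 called members with the largest change and groups apart, the 5 highest and 5 lowest members by TPM, the l paralogs, the ribosomal protein genes under other names, the 3 members furthest above and below the family's median, and the gene of each translation list with the largest called rise and fall. Hepatocyte, pan-leukocyte, macrophage, neutrophil, T and NK cell, B and plasma cell, stellate, endothelial, cholangiocyte, erythroid and cycling cell markers were also read, and 9 of 10 hepatocyte markers matched a symbol. One further gene, outside the counts given, is not reported here.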

Additional observations from a re-analysis of the deposited data

How the results depend on the processing

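No paired analysis was possible because the groups share no replicate number. In NASH against Control, 6 members were called lower with TMM, 6 with DESeq2 size factors, 4 without a filter and 9 by DESeq2 on 6 mice, against 17 by DESeq2 on 9 mice, 13 with the GC-content correction (chosen after seeing the data), 2 by edgeR on 6 mice, and 0 with library size alone, with the libraries scaled by the members' counts and in both TPM fits. In the last 4, 8, 2, 24 and 24 members were called higher, where TMM gave 0. Leaving out 1 mouse gave 1 to 8 called lower, and the mice that moved it most were Control replicate 4, NASH replicate 5 and NASH replicate 19. The members' median, -0.23 with TMM, was 0.14 with library size alone, 0.021 on the members' own scale and 0.22 with either TPM pseudocount, and -0.32 to -0.14 with 1 mouse left out. Between NASH+Exercise and NASH the median, 0.05 with TMM, was -0.16 with library size, -0.011 on the members' own scale and -0.26 with either pseudocount, and it ran from -0.0019 to 0.11 with 1 mouse left out, while the counts of calls stayed 0. Against Control the 1 call in NASH+Exercise became 4 by DESeq2 on 9 mice and with the GC-content correction, and 0 by edgeR on 6 mice, with library size, on the members' own scale and with TPM, and 0 to 1 with 1 mouse left out. The median, -0.16, was -0.012 with library size, -0.026 with either TPM pseudocount and 0.019 on the members' own scale.

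Single members changed sign as follows. On the TPM scale (pseudocounts of 1 and 0.1 gave nearly the same values), NASH against Control was 0.0052 for Rpl18, 0.0085 for Rps26, 0.036 (0.037 with 0.1) for Rpl24 and 0.085 for Rps18, and NASH+Exercise against NASH was -0.13 for Rpl28, -0.10 for Rpl41 and -0.074 (-0.075 with 0.1) for Rps2. With library size alone the last comparison gave -0.029 for Rpl28 and -0.0019 for Rpl41, and Rps18 was 0.0034 in NASH against Control. With 1 mouse left out Rps6 ran from -0.23 to 0.045 in NASH+Exercise against NASH, and in NASH+Exercise against Control Rps29 ran from -0.081 to 0.084, Rps20 from -0.039 to 0.10 and Rps6 from -0.064 to 0.23. With the GC-content correction Rps29 was -0.0039 there. The scalings differ by construction in what they hold constant, and the cause of the other changes was not tested. Of the other values of named members under an alternative, 246 kept their direction and side of the threshold, 53 kept the direction but lost the call and 11 gained one. Depth limits only the members with few counts, above all Rpl3l, Rps6 and the 3 untested paralogs.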

Other observations

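The aminoacyl-tRNA synthetases, which load amino acids onto tRNA, were looked at after their values were seen. All 20 cytosolic synthetase genes were tested. In NASH against Control 3, or 15%, were called lower and 0 higher by edgeR, a share close to the 14.4% of all genes called lower, beside 21.2% called higher, with 4 lower and 0 higher by DESeq2 and 6 at an unadjusted p under 0.05 in edgeR, and their median log2 fold change was -0.15 after TMM scaling, which turned to 0.20 with library size alone and to 0.29 on the TPM scale. Their summed level was 1153, 1264 and 1106 CPM in Control, 1080, 962 and 995 in NASH and 1047, 1148 and 1176 in NASH+Exercise. The NASH mice were below the Control mice, and the trained mice lay across both. With training 17 of the 20 had a higher mean than in NASH, with a median of 0.15 after TMM scaling that was -0.054 with library size alone and -0.15 on the TPM scale, and 0 were called by edgeR or DESeq2, with 1 at an unadjusted p under 0.05 in each. Against Control 1 was called higher and 0 lower in the trained mice, by edgeR and by DESeq2.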
